A study of Mus musculus with 24 samples.

Results

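The double knockout of the DNA glycosylase genes Ogg1 and Mutyh was compared with the sum of the single knockouts in nuclear RNA of hippocampal neurons. All 12 libraries of NeuN+ nuclei, of the 24 libraries of the series, entered 1 fit. For each gene the departure from additivity was calculated as (DKO minus Ogg1-/-) minus (Mutyh-/- minus WT) on the log2 scale. A departure of 0 means that loss of both genes changed a transcript by the sum of what each single loss did. The sign depends on which genotype stands apart: a higher level in WT or DKO alone gives a positive departure, and a higher level in a single knockout alone a negative one. The hippocampi came from male C57BL/6N mice aged 6 months that were housed in home cages. The 4 genotypes, with 3 replicates each, were WT, Mutyh-/-, Ogg1-/- and the double knockout, named Ogg1xMutyh-/- in the labels and DKO here, which was obtained by crossing the single knockout lines. The deletions are described without a tissue-specific Cre, and how the alleles were made is not given in the sources used here. Nuclei were pooled from animals of 1 genotype and stained for NeuN, the product of Rbfox3 that marks most neurons, and the NeuN- nuclei of the same study served as a comparison. Of 55254 gene symbols in the count table, 30132 passed the filter on low counts in NeuN+ and were tested.

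Oxidation of guanine in DNA yields a lesion that can pair with adenine. OGG1 removes the oxidised guanine opposite cytosine, whereas MUTYH removes the adenine that was misincorporated opposite the lesion, so both enzymes act on the same damage from opposite strands and start base excision repair. Single and double knockouts of such a pair are commonly set against each other to ask whether loss of the second enzyme adds to, or changes, the consequences of losing the first.

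Total counts ranged from 56563586 to 96192142 per NeuN+ library, with a median of 69255767.5, and levels are given as CPM, counts scaled to the size of each library with TMM factors. Rbfox3 was between 1320 and 1670 CPM in the NeuN+ libraries. The summed CPM of 9 excitatory neuron markers spanned 3870 to 4440 in NeuN+, against 354 to 480 in NeuN-. That of 9 oligodendrocyte markers spanned 139 to 164 in NeuN+, against 5430 to 8170 in NeuN-. The targeted genes did not lose their RNA. Ogg1 (chr6:113326972-113335068) was at 2.54, 3.49 and 3.10 CPM in WT, 2.68, 2.99 and 2.65 in Mutyh-/-, 3.34, 3.16 and 2.95 in Ogg1-/- and 3.03, 2.96 and 3.21 in DKO, and these ranges overlapped. Mutyh (chr4:116807723-116819440) was at 1.05, 1.18 and 1.18 CPM in WT and 1.29, 1.04 and 1.27 in Ogg1-/-, but at 10.6, 10.7 and 9.06 in the libraries labelled Mutyh-/- and 7.74, 8.39 and 11.1 in those labelled DKO. Mutyh RNA thus followed the labels, with higher rather than lower counts, and since counts per gene cannot tell a deleted exon from the remaining ones, neither gene checks the loss of the enzyme. WT, Mutyh-/-, Ogg1-/- and DKO below mean the libraries that carry these labels. The departure was 0.10 (SE 0.16, adjusted p = 0.895, edgeR quasi-likelihood test with Benjamini-Hochberg adjustment) for Ogg1 and -0.22 (SE 0.21, adjusted p = 0.809) for Mutyh.

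DKO replicate 3 stood apart from DKO replicates 1 and 2 in many of the genes described here. It was the highest of the DKO libraries in 25 of the 40 genes with a negative departure (62.5%, against 34.5% of all tested genes) and the lowest in 5 of the 8 with a positive one (62.5%, against 35.4%). In NeuN- nuclei the library with the same label was the highest DKO library in 29 of 39 of the former genes (74.4%, against 39.8% of all tested genes). For this RNA the study's methods give nuclei pooled from 3 animals per genotype. Whether a replicate was an animal, a pool of its own or part of 1 pool is not clear from them or from the labels. A general statement in the methods calls replicates independent and biological, without naming this RNA. The p-values measure the spread between these libraries, which may in part be technical. The fits were also made without DKO replicate 3.

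Among genes with a known position, the largest departures lay in a cluster of near-identical gene copies on chromosome 4 that includes the chemokine gene Ccl21d, whose product draws CCR7-bearing immune cells. Because the sequences show how alike the copies are, the 250 bases before the start of Ccl21d and of Ccl21a, a copy outside the stretch of called genes, are given from RefSeq on GRCm38.p6, with the single differing base of the aligned part in capitals. Ccl21a (chr4:42773992-42774241, minus strand) and Ccl21d (chr4:41903363-41903612, plus strand) were identical at 248 of 249 aligned bases.
Ccl21a: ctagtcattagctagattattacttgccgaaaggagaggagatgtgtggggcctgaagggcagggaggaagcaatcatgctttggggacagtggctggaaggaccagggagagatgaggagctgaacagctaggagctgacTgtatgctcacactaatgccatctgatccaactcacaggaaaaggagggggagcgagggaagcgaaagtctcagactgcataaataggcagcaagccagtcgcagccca
Ccl21d: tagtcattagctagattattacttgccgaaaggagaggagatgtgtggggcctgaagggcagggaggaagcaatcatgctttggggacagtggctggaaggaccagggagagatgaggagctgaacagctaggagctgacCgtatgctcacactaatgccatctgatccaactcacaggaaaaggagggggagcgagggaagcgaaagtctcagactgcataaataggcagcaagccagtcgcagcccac
Ccl21d and Gm13304 were identical at 249 of these 250 bases, and Gm13304 and Gm10591, Ccl21-like genes of the same cluster, at all 250. Between GENCODE transcripts, a single one of each gene, Ccl21a and Ccl21d shared 864 of 870 bases. Ccl21b and Gm10591 shared 402 of 402, and Fam205a2 and Fam205a3 3927 of 3927. How reads that fit several copies were counted is not given in the sources used here, so values of single copies are uncertain. RefSeq held an upstream sequence for 19 of the 48 genes called below.

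A gene was called when its adjusted p over all tested genes was under 0.05 and its absolute departure exceeded 0.5. In NeuN+, 48 of 30132 genes were called (0.159%), of which 40 were lower (0.133%) and 8 higher (0.0265%) in DKO than the sum of the single knockouts. At an unadjusted p under 0.05, 1106 genes (3.67%) had a positive and 1291 (4.28%) a negative departure. In the same fit 129 genes were called in Mutyh-/- against WT (0.428%), 173 in Ogg1-/- (0.574%) and 91 in DKO (0.302%). Read against these single contrasts, the 48 genes fell into few patterns. Both single knockouts, but not DKO, were called against WT in 20 genes, all with a negative departure. In 16 genes Ogg1-/- alone was called, in 6 genes Mutyh-/- alone, in 4 genes all 3 knockouts in the same direction, and in 2 genes the single knockouts in opposite directions. A position was known for 45 of the 48 genes. When called genes no more than 1 Mb apart were joined, a rule chosen after the values were seen, 38 of them lay in 4 stretches of the genome with at least 2 called genes each.

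**Figure D1:**
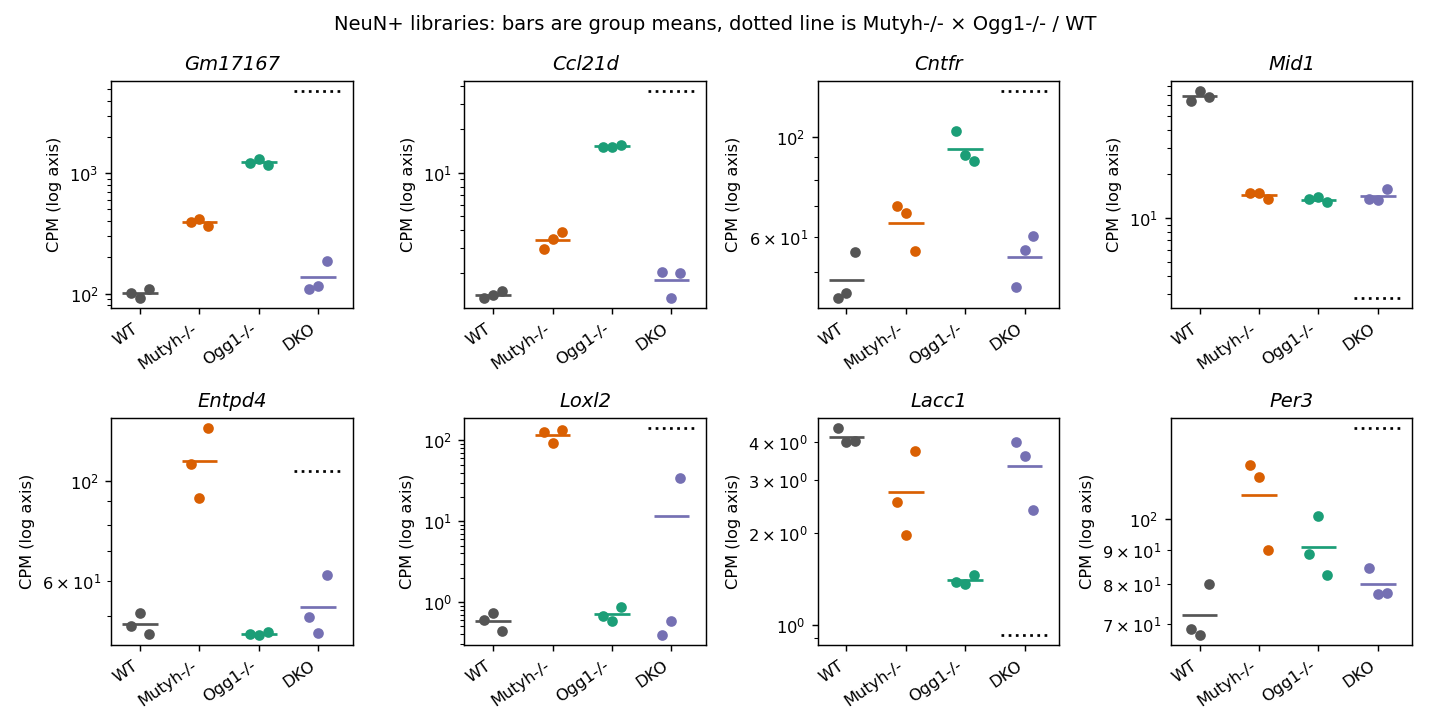
CPM (log axis) of 8 genes in each NeuN+ library of WT, Mutyh-/-, Ogg1-/- and DKO (points, 3 per genotype; bars are means), with the additive expectation for DKO as a dotted line. Gm17167 was at 1180 to 1310 CPM in Ogg1-/- and 110 to 186 in DKO, while Mid1 was near 14 CPM in all 3 knockouts.

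The largest group was a stretch of chromosome 4 (chr4:41657498-42612860, GRCm38, 0.96 Mb), where 27 of 40 tested genes were called and all 27 were lower than additive. Their departures ranged from -7.60 to -0.59 with a median of -2.47. The transcripts were highest in Ogg1-/-, intermediate in Mutyh-/- and near WT in DKO. Median log2 fold changes against WT were 1.93 in Ogg1-/-, where all 27 genes were called, 0.71 in Mutyh-/-, where 16 were called, and 0.19 in DKO, where 0 were called by the quasi-likelihood test, 14 had an unadjusted p under 0.05, and 2, 2 and 0 were called by the likelihood ratio test, DESeq2 and limma voom. In all 27 genes the 3 Ogg1-/- libraries lay above the 3 Mutyh-/- libraries, and in 25 the Mutyh-/- libraries lay above those of WT. The DKO libraries lay below all Mutyh-/- libraries in 16 genes and above all WT libraries in 7. The stretch is on the chromosome that carries Mutyh, at another position, and on another chromosome than Ogg1.

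Gm17167, a processed transcript (chr4:42206998-42235313, plus strand), had the highest mean level of these genes in both single knockouts, though not in WT. It was at 102, 91.6 and 110 CPM in WT, 395, 415 and 363 in Mutyh-/-, 1210, 1310 and 1180 in Ogg1-/-, and 110, 116 and 186 in DKO. The Mutyh-/- and Ogg1-/- libraries did not overlap with each other or with WT, and DKO replicates 1 and 2 were close to WT. Additivity would have given 4780 CPM in DKO against the 138 measured, and the departure was -5.12 (SE 0.21, adjusted p = 1.76e-09). Ccl21d (chr4:41903613-41904743) was at 1.34, 1.41 and 1.5 CPM in WT, 2.94, 3.46 and 3.84 in Mutyh-/-, 15.1, 15 and 15.6 in Ogg1-/-, and 2.03, 1.34 and 2.02 in DKO. Here too the single knockouts stood above WT without overlap while DKO overlapped with WT, and the departure was -4.36 (SE 0.19, adjusted p = 3.08e-09). The related Ccl21b, Gm13304 and Gm10591 departed by -3.56, -3.03 and -3.10. By contrast, Ccl21a (chr4:42772860-42773991), which lies beyond the distal end of the stretch, was between 5.34 and 7.87 CPM in all 12 libraries and its departure of -0.16 did not pass the test (adjusted p = 0.818). Il11ra2 (chr4:42655275-42665763) and Fam205a1 (chr4:42848071-42853888), also beyond that end, departed by -1.15 (adjusted p = 0.0987) and -0.60 (adjusted p = 0.222), and in both Ogg1-/- alone was called against WT.

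Other members of the stretch followed the same order with different sizes. The pseudogene Gm10601 had the largest departure of the genes placed in it (-7.60, SE 0.53, adjusted p = 5.88e-07), with 1.23, 1.06 and 1.01 CPM in WT, 12.1, 13 and 11.1 in Mutyh-/-, 41.4, 46.5 and 44.7 in Ogg1-/- and 0.915, 1.40 and 5.01 in DKO. DKO replicate 1 lay below WT, replicate 2 just above it and replicate 3 well above it. Gm10600, Gm13302 and Gm17081 departed by -7.59, -7.22 and -7.15. Gm13303, a pseudogene, and Gm13307, an antisense transcript, had the smallest p-values (adjusted p = 6.71e-10 for each), with departures of -4.03 and -2.16. Of the Fam205a genes, Fam205a4, Fam205a3 and Fam205a2 departed by -1.35, -1.36 and -0.90, and in these only Ogg1-/- was called against WT. Cntfr (chr4:41657498-41697089, minus strand), which encodes the ligand-binding subunit of the receptor for ciliary neurotrophic factor, marks the proximal edge. It was at 43.8, 44.9 and 55.4 CPM in WT, 70.1, 67.7 and 55.6 in Mutyh-/-, 103, 91.0 and 88.2 in Ogg1-/-, and 46.3, 56.0 and 60.2 in DKO. Ogg1-/- alone stood clear of the other genotypes, and the departure was -1.22 (SE 0.16, adjusted p = 0.00119). The 13 genes of the stretch that were not called included Il11ra1, Galt, Dctn3 and Ccl27a, which departed by -0.11, -0.10, 0.12 and -0.16. They also included Gm21586 (-0.77, adjusted p = 0.221), Gm21953 (-0.73, adjusted p = 0.115) and Ccl19-ps1 (-0.66, adjusted p = 0.637), the former 2 of which were called in Ogg1-/- against WT. The called genes without a position, Gm10599, Gm50470 and BX666061.1, had the same order of genotypes, with departures of -7.92, -7.08 and -5. Spaar (chr4:43730034-43759462), which encodes a small regulatory polypeptide of amino acid response, lies beyond the stretch and was at 1.32, 1.14 and 1.23 CPM in WT, 1.89, 2.11 and 1.96 in Mutyh-/-, 2.77, 2.38 and 2.57 in Ogg1-/- and 1.37, 1.57 and 1.61 in DKO, again in the same order (departure -1.45, SE 0.17, adjusted p = 0.000379). Across the fits that left out 1 library, 25 of the 27 genes of the stretch were called in all 12 fits, the exceptions being Gm13305 and Gm10593.

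**Figure D2:**
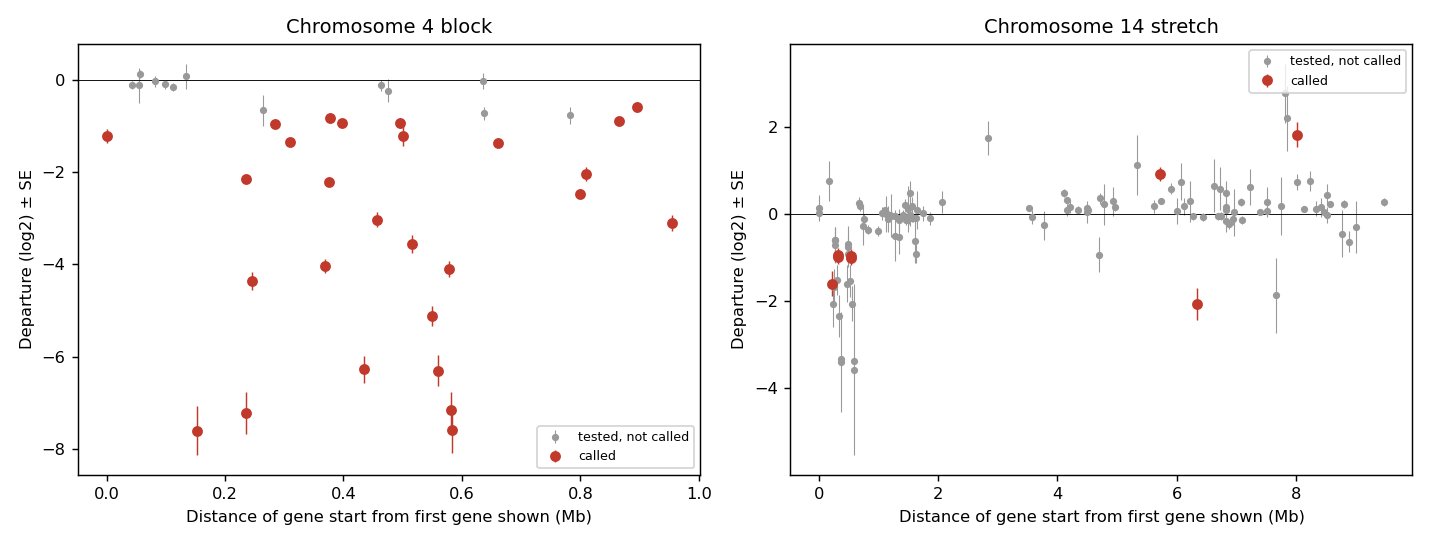
Departure from additivity (log2, bars are SE) of every tested gene along the chromosome 4 stretch (left) and along chromosome 14 (right), against the distance of the gene's start from the first gene shown in Mb, with called genes in red. The called genes on chromosome 4 are all below 0, with genes near 0 between them, and those on chromosome 14 lie on both sides of 0.

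The higher calls were led by Mid1 (chrX:169685199-170005736, plus strand), which encodes a microtubule-bound ubiquitin ligase and lies at the boundary of the pseudoautosomal region. It was at 63.6, 74.0 and 68.0 CPM in WT, 14.8, 14.9 and 13.5 in Mutyh-/-, 13.4, 13.9 and 12.8 in Ogg1-/-, and 13.4, 13.2 and 15.7 in DKO. All knockout libraries lay below all WT libraries, and the knockouts overlapped with each other. The log2 fold changes against WT were -2.25, -2.36 and -2.28, so that the DKO fell as far as each single knockout and not by their sum, which would have given 2.81 CPM. The departure was 2.33 (SE 0.11, adjusted p = 4.46e-09). G530011O06Rik, Gm15726 and Gm15247, transcripts of the opposite strand within Mid1, showed the same arrangement with departures of 2.94 (SE 0.27), 5.33 (SE 0.47) and 4.87 (SE 0.45). Gm15726 was at 16.2, 19.5 and 17.0 CPM in WT and between 0.335 and 1.83 in the 9 knockout libraries. These 4 genes were the only tested ones in that stretch, and as 3 of them lie inside the other they are not separate observations. By edgeR's quasi-likelihood and likelihood ratio tests, DESeq2 and limma voom, 0 of the 4 were called between DKO and either single knockout, with 2 of 4 (DKO against Ogg1-/-) and 1 of 4 (DKO against Mutyh-/-) at an unadjusted p under 0.05. A positive departure here states that WT stood apart from the other 3 genotypes.

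On chromosome 14, 5 of 20 tested genes of one stretch (chr14:69241848-69585520, 0.34 Mb) were called lower, and in each of them Mutyh-/- alone was called against WT. Entpd4 and Entpd4b encode nucleotide-hydrolysing enzymes of the secretory pathway. The transcripts compared, a single one of each gene, shared 3589 of 3589 bases. Introns were not compared, and how reads that fit both genes were counted is not given. These counts may therefore not tell the genes apart. Entpd4 was at 47.6, 50.8 and 45.8 CPM in WT, 109, 91.6 and 131 in Mutyh-/-, 45.6, 45.5 and 46.2 in Ogg1-/-, and 49.9, 45.9 and 61.7 in DKO. The Mutyh-/- libraries were higher without overlap, and DKO was at the level of WT apart from replicate 3 (departure -1, SE 0.16, adjusted p = 0.0113). Slc25a37, which encodes mitoferrin, the importer of iron into mitochondria, was at 15, 16.4 and 15.7 CPM in WT, 60.1, 47.6 and 72.6 in Mutyh-/-, 15.8, 15.9 and 17.1 in Ogg1-/-, and 15.5, 15.4 and 30.7 in DKO. Its departure was -1.60 (SE 0.29, adjusted p = 0.0464), and it was called in 2 of the 12 fits that left out 1 library.

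The neighbour Loxl2 (chr14:69609068-69695834), a lysyl oxidase that cross-links collagen, had 1 high library among those of DKO. It was at 0.594, 0.734 and 0.445 CPM in WT, 126, 91.8 and 136 in Mutyh-/-, 0.675, 0.587 and 0.867 in Ogg1-/-, and 0.394, 0.579 and 34.1 in DKO. With all libraries the departure of -3.58 (SE 1.96) did not pass the test (adjusted p = 0.651), and without DKO replicate 3 it was -8.17 (SE 0.39, adjusted p = 6.01e-09). Gm21451 (2.29, 2.03 and 39.8 CPM in DKO), Gm16867 (26.1, 24.9 and 87.8) and Gm27177 (16.9, 15.2 and 44.8), all of the same stretch, had the same single high library. Without DKO replicate 3 the number of called genes in all rose from 48 to 103 (31 higher and 72 lower), of which 46 were among the 48 and 57 were new, and 7 of the 57 started in this stretch or within 0.2 Mb after it. Among the new ones was Smok2a on chromosome 17, with 4.25, 2.54 and 0.135 CPM in DKO and at most 0.236 CPM in the other genotypes, which departed by 4.32 (SE 1.49, adjusted p = 0.568) with all libraries and by 4.89 (SE 0.57, adjusted p = 0.000385) without that library. What set DKO replicate 3 apart was not tested.

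Further along chromosome 14 the departure had both signs, and Ogg1-/- was the genotype that stood apart. Esd (chr14:74732297-74750765), the gene of the esterase that clears formaldehyde adducts of glutathione, was at 8.97, 9.10 and 8.98 CPM in WT, 9.18, 9.73 and 7.37 in Mutyh-/-, 4.33, 4.61 and 3.82 in Ogg1-/-, and 8.17, 8.57 and 6.47 in DKO. Only Ogg1-/- lay below the others (departure 0.91, SE 0.16, adjusted p = 0.0409). With additivity on the CPM scale the departure was about as large, at 0.95, but did not pass the test (adjusted p = 0.462). Lacc1 (chr14:77024200-77036904), which encodes a purine-metabolising enzyme of macrophages, was at 4.44, 4.01 and 4.02 CPM in WT, 2.53, 1.98 and 3.72 in Mutyh-/-, 1.38, 1.36 and 1.46 in Ogg1-/-, and 4.01, 3.59 and 2.39 in DKO. The DKO libraries overlapped with those of Mutyh-/- and lay above those of Ogg1-/- (departure 1.82, SE 0.29, adjusted p = 0.0113). Gm49200, a long intergenic RNA between them, was higher in Ogg1-/-, at 6.13, 6.69 and 6.78 CPM, than in any other library, where it was between 0.768 and 2.03 CPM, and departed by -2.07 (SE 0.36, adjusted p = 0.0256). Esd and Gm49200 were each called in 3 of the 12 fits that left out 1 library, and Lacc1 in 11, the exception being the fit without WT replicate 1 (adjusted p = 0.0565).

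Single genes elsewhere completed the list. Gm3952 on chromosome 8 and Gm5535 on chromosome 2 were the only called genes with opposite effects in the single knockouts. Gm3952 was at 9, 8.94 and 11 CPM in WT, 15.9, 15.8 and 13.7 in Mutyh-/-, 2.77, 2.66 and 2.72 in Ogg1-/-, and 10.4, 14.2 and 10.9 in DKO. The low level of Ogg1-/- was absent from DKO, where the departure was 1.47 (SE 0.16, adjusted p = 0.000228). Gm5535 departed by 1.42 (SE 0.19, adjusted p = 0.00192) in the same order, and both departures were smaller and did not pass the test when additivity was taken on the CPM scale (0.53 with adjusted p = 0.655 and 0.46 with adjusted p = 0.686). Arhgap33os (chr7:30515122-30522193), an antisense transcript of Arhgap33, was at 0.600, 0.807 and 0.991 CPM in Ogg1-/- and between 0.107 and 0.166 CPM in the other libraries, with a departure of -3.00 (SE 0.45, adjusted p = 0.00707). DESeq2 gave a departure of -3.01 and no adjusted p for it, so no call was made there. Outside Ogg1-/- it had 7 to 13 counts per library. Gm48348 on chromosome 9 was between 0 and 0.398 CPM, too low to give a fold change, and was called in 1 of the 12 fits that left out 1 library. These 2 of the 48 called genes passed the filter on low counts (10 counts in the median library, 0.144 CPM, in at least 3 libraries) only through Ogg1-/-, the genotype where they were high, and had to differ in order to be tested. The other 46 had at least 10 counts in every library.

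Per3 (chr4:151003652-151044665, minus strand), which encodes a repressor of the circadian clock, was the only called gene in any of the functional gene lists. It was at 68.8, 67.4 and 80.0 CPM in WT, 120, 115 and 90.0 in Mutyh-/-, 88.7, 101 and 82.5 in Ogg1-/-, and 84.7, 77.5 and 77.8 in DKO. Mutyh-/- was above WT without overlap, and DKO overlapped with WT and with Ogg1-/-. The departure was -0.77 (SE 0.14, adjusted p = 0.046). This was a call made in 3 of the 12 fits that left out 1 library. The adjusted p was 0.000257 by the likelihood ratio test, 9.28e-05 by DESeq2, 0.0566 by limma voom, 0.0848 by edgeR with a replicate block, 0.486 in the fit of all 24 libraries and 0.385 with additivity on the CPM scale. Of the 19 clock genes, 8 had a positive departure and the median was -0.09. Per2 departed by -0.51 (adjusted p = 0.584), Bhlhe41 by -0.35 (adjusted p = 0.58) and Nr1d1 by 0.28 (adjusted p = 0.623), and these did not pass the test. Per3 lies on the same chromosome as Mutyh.

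An effect of losing 1 enzyme can be measured from separate pairs of genotypes that share no library. By the labels, the effect of Mutyh loss is Mutyh-/- minus WT without Ogg1 loss and DKO minus Ogg1-/- with it. The departure is the difference between these effects. Across the 30132 tested genes, which are not independent replicates, these effects had a Pearson r of 0.21 and a Spearman rho of 0.17, and 56.9% of genes had the same sign. Without DKO replicate 3 the Pearson r was 0.014, so the Pearson r depended on that library. This does not show whether the Spearman rho or the share of same signs did. Of the 129 genes called in Mutyh-/- against WT, 89 had the same sign in DKO against Ogg1-/- (69.0%). All 18 within 10 Mb of Mutyh did, as did 71 of the 111 elsewhere (64.0%). On the log2 scale the median absolute first effect was 1.66 for the 18 and 0.95 for the 111. The median second effect, signed as positive in the direction of the first, was 1.67 and 0.13. For Ogg1 loss, Ogg1-/- minus WT against DKO minus Mutyh-/-, r was 0.01, rho was 0.04, and 52.1% of all genes had the same sign. Over the 173 genes called in Ogg1-/- against WT, r was -0.17 and rho was 0.07. Over the 129 genes for Mutyh loss they were 0.44 and 0.32. Of the 173 genes, 127 had the same sign (73.4%). These included all 5 within 10 Mb of Ogg1 and 122 of the 168 elsewhere. The median absolute first effect was 0.54 for the 5 and 0.77 for the 168, and the signed median of the second was 0.72 and 0.18. The departures of the 18 genes near Mutyh ranged from -2.19 to 0.29 with a median of -0.15, and those of the 5 near Ogg1 from -0.18 to 0.43 with a median of 0.05. The genes were chosen by the first effect and not by the second, so a smaller second effect is expected whatever the background. The medians of the first effect are also absolute, and those of the second are signed. The medians elsewhere therefore cannot show whether effects were smaller on the background of the other knockout. Tspan11, on the chromosome of Ogg1 but more than 10 Mb from it, is an example among the genes elsewhere of an effect that repeated, at 0.772, 0.854 and 0.829 CPM in WT, 0.604, 0.649 and 0.819 in Mutyh-/-, 7.23, 8.10 and 7.48 in Ogg1-/- and 7.41, 9.88 and 8.15 in DKO. Of 558 tested genes within 10 Mb of either target, 0 were called for departure by the quasi-likelihood test, 28 had an unadjusted p under 0.05 (5.02%, against 7.95% of all tested genes), and 1, 1 and 0 were called by the likelihood ratio test, DESeq2 and limma voom. With 0.159% of all genes called, a count of 0 among 558 is near the background.

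**Figure D3:**
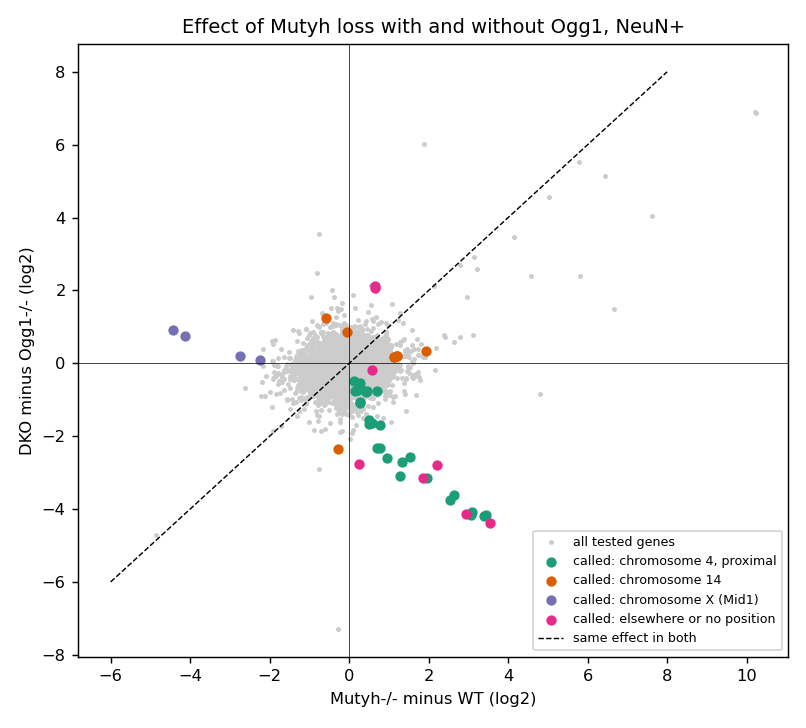
Effect of Mutyh loss, by the labels, without Ogg1 loss (Mutyh-/- minus WT, horizontal, log2) and with it (DKO minus Ogg1-/-, vertical, log2). Every tested gene is shown, with the line of equality on which the departure is 0. The 40 genes called lower lie below the line and the 8 called higher above it.

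Functional gene lists gave few calls. Outside the list of clock genes, which holds Per3, 0 of 736 tested list members were called by edgeR's quasi-likelihood or likelihood ratio test, DESeq2 or limma voom, and 90 had an unadjusted p under 0.05 (12.2%, against 7.95% of all tested genes). With 0.159% of all genes called, a count of 0 among 736 is near the background. Tubulins and actin regulators, which build and shape the neuronal cytoskeleton, had the most uniform sign. All 19 members had a positive departure, with a median of 0.37, and 14 had an unadjusted p under 0.05, whereas the median over all tested genes was 0 and 50.5% were positive. Actg1, which encodes gamma-actin, was at 71.3, 91.1 and 82.2 CPM in WT, 65.3, 65.3 and 47.5 in Mutyh-/-, 57.3, 53.3 and 47.2 in Ogg1-/-, and 57.9, 62.8 and 44.0 in DKO. WT lay above the knockouts, and the knockouts overlapped (departure 0.52, SE 0.19, adjusted p = 0.584). Tmsb10, which encodes an actin-sequestering thymosin, departed by 0.43 (SE 0.13, adjusted p = 0.521), the profilin gene Pfn2 by 0.42 and the tubulin gene Tubb4b by 0.40. The list's median log2 fold changes against WT were -0.35 in Mutyh-/-, -0.44 in Ogg1-/- and -0.43 in DKO, so DKO was less low than the sum of the single knockouts.

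The same arrangement, WT above all knockouts, was found in lists of housekeeping genes. Of 79 cytosolic ribosomal protein genes, 72 had a positive departure, with a median of 0.23 and 15 at an unadjusted p under 0.05. Fau, which encodes a ribosomal protein fused to a ubiquitin-like protein, was at 7.55, 9.22 and 8.12 CPM in WT and departed by 0.55 (SE 0.21, adjusted p = 0.588). Positive departures were found in 23 of 26 genes of glycolysis and gluconeogenesis (median 0.19), 37 of 40 of respiratory complexes II to V (0.14), 29 of 37 of complex I (0.12), 28 of 31 proteasome subunits (0.12) and 25 of 31 antioxidant and glutathione genes (0.13). Interneuron markers were positive in 15 of 17 (median 0.24), with Calb2, the gene of calretinin, at 0.52 (SE 0.20, adjusted p = 0.601) and Sst at 0.35 (adjusted p = 0.664). Nuclear and imprinted long noncoding RNAs had the reverse sign, with 2 of 14 positive, departures of -0.62 to 0.23 and a median of -0.12. Airn, at -0.28 (SE 0.09, adjusted p = 0.565), had the lowest adjusted p among them. Leaving out 1 library moved the medians to between 0.25 (without Mutyh-/- replicate 3) and 0.47 (without DKO replicate 3) for tubulins and actin regulators, 0.12 and 0.31 for ribosomal proteins, and 0.11 and 0.26 for glycolysis. Without the same libraries the medians were 0.05 and 0.15 for complex I, 0.09 and 0.20 for complexes II to V and 0.12 and 0.28 for interneuron markers. That of the antioxidant and glutathione genes was 0.20 without Ogg1-/- replicate 1, and that of the long noncoding RNAs was -0.07 without Mutyh-/- replicate 3.

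The departure also went with genomic span. In 4 equal groups of tested protein-coding genes by span, the median departure was 0.063 in the shortest (0.087 to 10.5 kb), 0.020 and 0.009 in the middle ones and -0.012 in the longest (60.1 to 2960 kb), and 60.5%, 55.3%, 52.3% and 46.4% of genes were positive. The difference between the shortest and the longest group was 0.075. It was 0.035 without a filter on low counts, 0.033 without WT replicate 2, 0.043 without Mutyh-/- replicate 3, 0.048 without DKO replicate 2 and 0.112 without WT replicate 1. In the shortest group the median log2 fold changes against WT were -0.045 in Mutyh-/-, -0.058 in Ogg1-/- and -0.044 in DKO. The part of gene span in the departures of the lists was not tested.

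**Figure D4:**
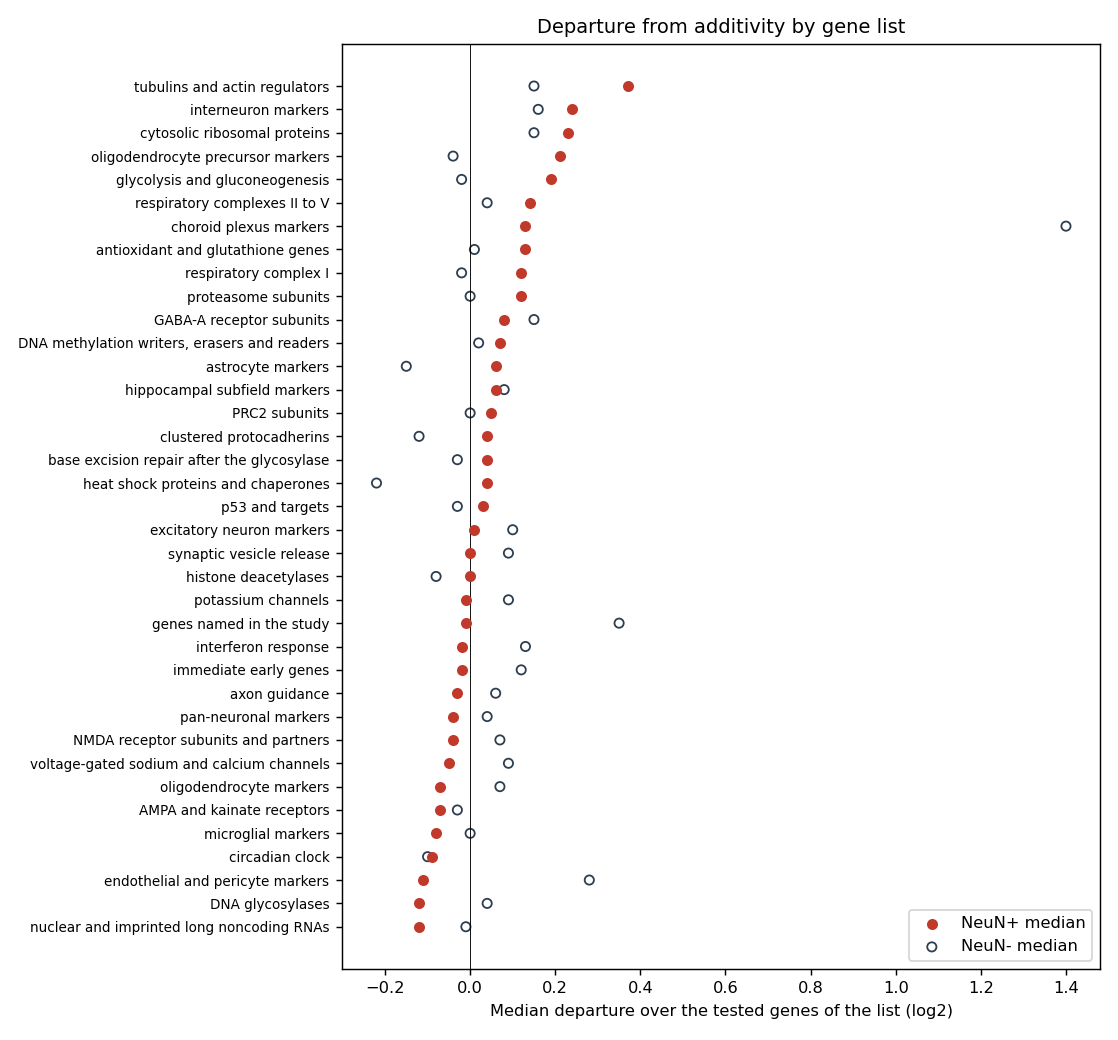
Median departure (log2) of each gene list in NeuN+ and NeuN- nuclei, with 0 marked. Tubulins and actin regulators (0.37), interneuron markers (0.24) and ribosomal proteins (0.23) have the highest medians in NeuN+ among the lists named in the text.

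Lists that bear on the enzymes' function held no called gene. Of 11 DNA glycosylase genes, 5 were positive and the median was -0.12, with 0 at an unadjusted p under 0.05. Neil1, which encodes a glycosylase for oxidised bases, departed by -0.12 (SE 0.17, adjusted p = 0.869), Nthl1 by -0.31 (SE 0.21, adjusted p = 0.709) and Mbd4 by 0.18 (SE 0.11, adjusted p = 0.704). Of 17 genes that act after the glycosylase, 11 were positive, with a median of 0.04, and Apex1, the endonuclease for abasic sites, departed by 0.22 (SE 0.16, adjusted p = 0.731). p53 and its targets had a median of 0.03, with Cdkn1a, the cell cycle inhibitor p21, at -0.82 (SE 0.35, adjusted p = 0.61) from levels between 0.312 and 0.653 CPM. Among enzymes of DNA methylation, Dnmt3b departed by 0.72 (SE 0.22, adjusted p = 0.521). It was at 1.69, 1.56 and 1.46 CPM in WT, 0.881, 0.757 and 1.16 in Mutyh-/-, 1.48, 1.35 and 1.40 in Ogg1-/-, and 1.58, 1.24 and 1.38 in DKO, with Mutyh-/- below the rest. Subunits of PRC2 (median 0.05) and histone deacetylases (0.00) showed no common sign beyond 9 of 12 and 8 of 16 positive genes. Heat shock proteins and chaperones had a median of 0.04, within which the endoplasmic reticulum chaperones Hspa5 and Calr departed by -0.94 (SE 0.31, adjusted p = 0.558) and -0.55 (SE 0.23, adjusted p = 0.609). Hspa5 was at 59.0, 60.4 and 35.4 CPM in Mutyh-/- against 25.5, 26.9 and 30.8 in WT and 20.0, 28.0 and 34.5 in DKO. Mutyh-/- replicate 3 was close to DKO replicate 3, while the other Mutyh-/- libraries stood above all of these.

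Of the neuronal lists, NMDA receptor subunits and partners had 7 of 23 positive departures (median -0.04), AMPA and kainate receptors 5 of 19 (-0.07), GABA-A receptor subunits 11 of 13 (0.08), voltage-gated sodium and calcium channels 10 of 23 (-0.05), potassium channels 16 of 36 (-0.01), synaptic vesicle release genes 16 of 31 (0.00), axon guidance genes 23 of 51 (-0.03), clustered protocadherins 15 of 27 (0.04) and immediate early genes 12 of 24 (-0.02). Interferon response genes had 9 of 20 (-0.02). None of these lists held a called gene. The study names 9 genes, which it chose on these samples, where it compares RNA with histone marks and DNA methylation. Of these 9, 8 were tested and 4 were positive. Grin1, Hdac4, Camk2a, Sema4c and Glis1 are named there for neurons, and Bdnf, Grm7, Npr3 and Wnt6, which was not tested, for non-neuronal cells. The NMDA receptor gene Grin1 departed by 0.09 (SE 0.07, adjusted p = 0.734), with all libraries between 309 and 348 CPM. Hdac4 departed by -0.13 (SE 0.06, adjusted p = 0.637), Camk2a by -0.07 (SE 0.09, adjusted p = 0.864), Bdnf by 0.06 (SE 0.17, adjusted p = 0.949), Grm7 by -0.13 (SE 0.07, adjusted p = 0.645), Sema4c by 0.21 (SE 0.17, adjusted p = 0.766) and Npr3 by -0.09 (SE 0.09, adjusted p = 0.822). The transcription factor gene Glis1 had the smallest p among them, with 28.7, 28.2 and 27.8 CPM in WT, 26.1, 25.8 and 31.0 in Mutyh-/-, 26.1, 24.9 and 31.4 in Ogg1-/-, and 36.1, 34.1 and 32.8 in DKO. Only DKO lay above all other libraries, and the departure of 0.35 (SE 0.12, adjusted p = 0.568) did not pass the test over all genes.

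Markers of cell types gave no call. Medians were 0.01 for excitatory neurons, 0.06 for hippocampal subfields, -0.07 for oligodendrocytes, 0.21 for oligodendrocyte precursors, 0.06 for astrocytes, -0.08 for microglia, -0.11 for endothelial cells and pericytes, 0.13 for choroid plexus and -0.04 for pan-neuronal genes, with 0 genes called in each by any of these tools. In NeuN- the choroid plexus median was 1.40, where the summed level of 5 such markers ranged from 16.1 to 279 CPM between libraries, against 23.9 to 33.4 in NeuN+. The summed level of the 17 interneuron markers was between 1330 and 1420 CPM in WT, 1300 and 1400 in Mutyh-/-, 1360 and 1430 in Ogg1-/- and 1310 and 1360 in DKO. That of 7 microglial markers was between 78.3 and 83.7 CPM over all NeuN+ libraries and between 545 and 706 in NeuN-. Mitochondrially encoded genes were not analysed here. In sorted nuclei, fewer cells of a type and less RNA per nucleus cannot be told apart.

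The NeuN- nuclei of the same 4 genotypes gave another measurement of the contrast, from other libraries on other sequencing lanes, so that fraction and lane cannot be told apart. There, 38 of 31863 tested genes were called (0.119%), and 68 without DKO replicate 3. Of the 38, 28 were among the 48 of NeuN+. This is 58.3% of the NeuN+ calls and 73.7% of the NeuN- calls, and all 28 had the same direction in both fractions. Of the 47 NeuN+ calls that were tested in NeuN-, 45 had the same sign. Whether the fractions of 1 replicate number came from the same animals is not stated in the labels, so calls in both are not independent observations. On chromosome 4, 21 of the 27 genes of the stretch were called in NeuN- too. Gm17167 departed by -5.90 there (adjusted p = 1.76e-06) and Ccl21d by -5.32 (adjusted p = 1.53e-05). Of the genes within Mid1, Gm15247 (2.82, adjusted p = 0.000119) and G530011O06Rik (1.72, adjusted p = 0.00088) were called in NeuN-. Mid1 itself departed by 0.90 in NeuN- (adjusted p = 0.297), and its difference of 1.44 between the fractions had an adjusted p of 0.0671. Slc25a37 departed by -1.56 (adjusted p = 0.0432) and Esd by 0.81 (adjusted p = 0.0232), whereas Cntfr (-0.58), Gm3952 (0.21), Spaar (0.02) and Per3 (-0.11) did not pass the test in NeuN-.

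In a fit of all 24 libraries, the departure differed between NeuN+ and NeuN- in 3 of 33523 tested genes (0.00895%). Of the 33523, 1662 had an unadjusted p under 0.05. This fit treats the NeuN+ and NeuN- libraries as independent. In the same fit with a replicate block, 8 genes were called, and of the 3 genes Enox1 had an adjusted p of 0.0382, Epsti1 of 0.0552 and Arhgap33os of 0.0818. Arhgap33os departed by -3.00 in NeuN+ and 0.70 in NeuN-, a difference of -3.68 (SE 0.51, adjusted p = 0.0108). Epsti1, an interferon-induced gene, departed by -0.64 in NeuN+ and 0.94 in NeuN-. In NeuN- it was at 14.9, 14.7 and 14 CPM in WT, 14, 13.8 and 15 in Mutyh-/-, 8.72, 7.30 and 8.42 in Ogg1-/-, and 16.6, 15.9 and 13.5 in DKO, whereas in NeuN+ it was between 0.613 and 1.32 CPM, with Ogg1-/- above the other genotypes. Enox1, which encodes an oxidase of the cell surface, was at 911 to 1030 CPM in all NeuN+ libraries and higher in Ogg1-/- (761, 751 and 718 CPM) than in the other NeuN- libraries (524 to 607 CPM). Both genes lie on chromosome 14 near Lacc1.

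**Figure D5:**
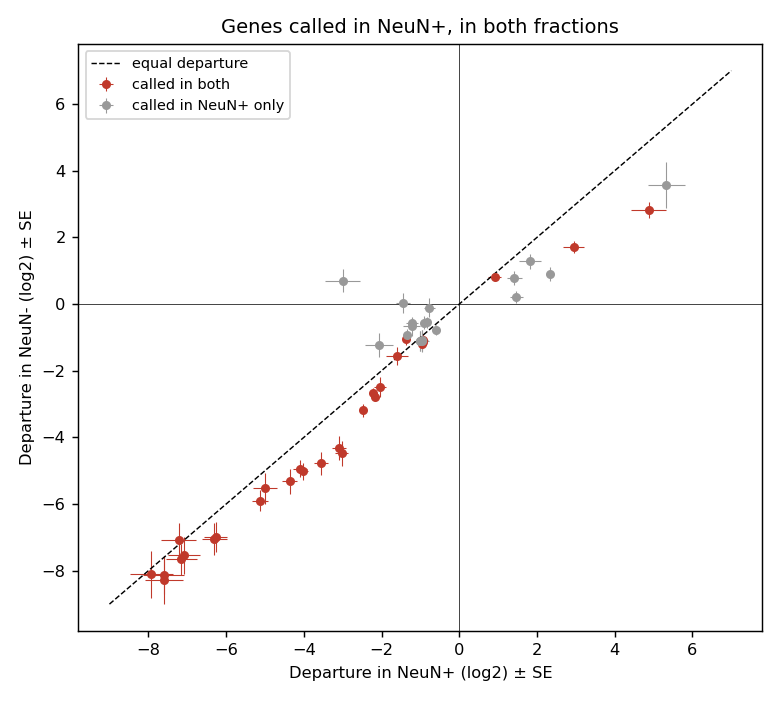
Departure (log2, bars are SE) in NeuN+ (horizontal) and NeuN- (vertical) nuclei of the genes called in NeuN+ and tested in both, with the line of equality. All but 2 of the 47 genes have the same sign in both fractions.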

How the data were processed

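Per the labels, the extract protocol used the SMARTer stranded total RNA kit on RNA of sorted nuclei. The authors aligned the reads to GRCm38 with HISAT2 2.1.0 (SAMtools 1.10, FastQC 0.11.9) and counted them per gene with featureCounts. The deposited values are raw counts for 55254 gene symbols. Handling of strand, overlapping genes and reads with several alignments is not given in the sources used here, so antisense, overlapping and near-identical genes are uncertain.

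Counts were analysed with R 4.3.3 and edgeR 4.0.16: filterByExpr by genotype, TMM factors, and a quasi-likelihood test of (DKO minus Ogg1-/-) minus (Mutyh-/- minus WT) over the 12 NeuN+ libraries, with Benjamini-Hochberg adjustment over all tested genes. The same contrast was fitted to NeuN-, and the difference between fractions to all 24 libraries. edgeR's biological coefficient of variation came to 0.0823 (NeuN+) and 0.124 (NeuN-). Positions came from GENCODE vM21, or from RefSeq on GRCm38.p6 for symbols without a single entry, and covered 98.8% of tested genes. Upstream sequences were read from RefSeq. Transcript sequences were read from GENCODE vM21, with a single chosen transcript of each gene. That of Ccl21d is held there under another gene symbol. The script was tested on simulated counts. Alternatives were limma 3.58.1 voom, DESeq2 1.42.0, the likelihood ratio test, other size factors, filters and thresholds, the CPM scale, a replicate block and fits without 1 library.

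The contrast, gene lists and tests were chosen with earlier results of these data known. The rule named Ogg1 and Mutyh, the 10 called genes with the smallest p and the 5 with the largest departure in each direction, genes named by the study, up to 4 members of each list by smallest p, markers, up to 5 genes called in both fractions and up to 5 called in their difference. Others, such as Loxl2, Smok2a, Cntfr, Slc25a37, Ccl21a and Tspan11, were chosen after their values were seen.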

Additional observations from a re-analysis of the deposited data

Results flagged for a closer look

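The departure from additivity differed between NeuN+ and NeuN- nuclei in 3 genes by a test of the difference itself (edgeR quasi-likelihood test over all 24 libraries with Benjamini-Hochberg adjustment). For Arhgap33os the NeuN+ departure minus the NeuN- departure was -3.68 on the log2 scale (SE 0.51, adjusted p = 0.0108), at levels below 1 CPM. In NeuN+ it had 7 to 13 counts per library outside Ogg1-/-, and it passed the filter on low counts there only through Ogg1-/-. For Enox1 it was 0.69 (SE 0.10, adjusted p = 0.0213), and for Epsti1 it was -1.57 (SE 0.24, adjusted p = 0.0219). In the 24 fits that left out 1 library Enox1 lost the call in 6 and Epsti1 in 13. In the fit with a replicate block the adjusted p was 0.0818 for Arhgap33os, 0.0382 for Enox1 and 0.0552 for Epsti1. The fractions were sequenced on different lanes, and lane and fraction cannot be told apart.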

How the results depend on the processing

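No called departure of a named gene changed sign in the alternatives run. The 48 NeuN+ calls became 108 (31 higher, 77 lower) without a filter on low counts and 98 (23 higher, 75 lower) by edgeR's likelihood ratio test, and all 48 were among them in both. The number of higher calls became 14 in the fit of all 24 libraries and 17 by DESeq2, where 41 and 46 of the 48 were called. Fits without 1 library gave 39 (without WT replicate 1) to 103 calls (without DKO replicate 3), 7 to 31 higher and 32 to 72 lower, and kept 38 to 47 of the 48, of which 36 were called in all 12. The number of genes with both single knockouts called and not DKO was 17 to 25, and lists with a positive median numbered 19 to 25. The difference in median departure between the shortest and longest genes was 0.075, 0.035 without a filter, and 0.033 to 0.112 without 1 library. The correlation of Mutyh-loss effects was 0.212, 0.137 with at least 10 counts in every library, and 0.014 (without DKO replicate 3) to 0.295 (without DKO replicate 1). That of Ogg1-loss effects was -0.05 to 0.054. NeuN- calls numbered 88 by the likelihood ratio test and 27 to 68 without 1 library. Genes that differed between fractions numbered 9 by the likelihood ratio test and 1 to 7 without 1 library. With additivity taken on the CPM scale, 46 genes were called, 35 of them among the 48. The causes of these shifts were not tested.

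Whether replicate numbers pair the libraries was checked by the correlation of deviations from the genotype means. Same-numbered NeuN+ libraries of different genotypes correlated at -0.38 to 0.34 (mean -0.005, 6 of 18 over 0.1), and NeuN+ with NeuN- libraries of the same number at -0.02 to 0.42 (10 of 12 over 0.1). With the replicate block, 47 genes were called in NeuN+ (8 higher, 39 lower, 45 of the 48), 33 in NeuN-, and 8 between fractions, and Per3 had an adjusted p of 0.0848 by edgeR.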
